A study of Mus musculus with 9 samples.

Results

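The genes for translation factors and aminoacyl-tRNA synthetases were examined in mouse embryonic stem cells exposed to 5-iodotubercidin (5-ITu). They were chosen by gene symbol alone (the Eif1 to Eif6, Eef1 and Eef2 names, the synthetase names ending in ars, ars1 or ars2, and Eprs, Farsa, Farsb, Aimp1, Aimp2, Etf1 and Gspt1). The rule does not use their values, but earlier results of these data were known when the genes were chosen. By this rule, 91 genes were taken from the 8625 with a single symbol among the 10476 probe sets of the deposited table. Genes absent from that table could not be followed. Each gene was followed through its brightest probe set, and 89 of the 91 passed the filter on low signal and were tested.

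The cells were of the E14 line, a mouse embryonic stem cell line kept undifferentiated in medium with serum and LIF, the cytokine that maintains pluripotency. The 3 groups of 3 arrays received DMSO without the drug, or 5-ITu at 0.1 μM or at 1.0 μM, for 26 h, and carried no other difference in genotype or agent. 5-ITu is an adenosine analogue used as an inhibitor of the mitotic kinase Haspin and earlier described as an inhibitor of adenosine kinase. The study's methods call the replicates biological, but the labels give no culture or date, so the p values measure the spread between these arrays of a single line. Messenger RNA was read on Affymetrix Mouse Gene 2.0 ST arrays as log2 signal, so that a difference of 1 is a doubling.

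Each array had 9469 to 9780 of the 10476 deposited probe sets over the background threshold of 8.46, and the array medians were 9.71 to 9.75. The study's methods kept only probes over this threshold for evaluation, so this share is not a measure of array quality. Whether a marker missing from the deposited table was expressed cannot be told. Of 8 embryonic stem cell markers, 7 had a probe set in the deposited table. Of these, 6 (Pou5f1, Sox2, Nanog, Zfp42, Tdgf1 and Utf1) were over the threshold on all 9 arrays. A single one of 6 fibroblast markers, Thy1, had a probe set in that table. Thy1 was over the threshold on 0 of 3 arrays in DMSO, 3 of 3 at 0.1 μM and 2 of 3 at 1.0 μM. Of 5 primitive endoderm markers, 2 had a probe set there, Dab2 and Lama1, and both were over the threshold on all 9 arrays. Lama1 averaged 8.99 in DMSO, 9.38 at 0.1 μM and 8.91 at 1.0 μM, and the part of such cells in the results was not tested. The median SD of a tested probe set was 0.0859 in DMSO, 0.0424 at 0.1 μM and 0.0753 at 1.0 μM. In cultures measured as a whole, fewer cells that express a gene and less RNA per cell cannot be told apart.

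Protein synthesis starts when each aminoacyl-tRNA synthetase joins its amino acid to the matching tRNA. Most amino acids have separate enzymes for the cytosol and for mitochondria. These were told apart here by gene symbol alone, and a gene that serves both compartments was counted as cytosolic. Initiation factors then bring initiator tRNA (eIF2), the small ribosomal subunit (eIF3) and the capped end of the mRNA (eIF4) together, elongation factors deliver the charged tRNAs and move the ribosome, and release factors act at the stop codon. Uncharged tRNA activates the kinase GCN2 on eIF2, and the transcription factor ATF4, which is made when eIF2 is phosphorylated, is known to raise the transcripts of many cytosolic synthetases.

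At 1.0 μM 5-ITu, 5 of the 89 tested genes rose and 11 fell against DMSO at an adjusted p under 0.05 (limma, Benjamini-Hochberg adjustment over all 9911 tested probe sets). This was 18.0% of the members, beside 27.7% of all tested probe sets. The members that rose were 5.62% (background 13.4%) and those that fell were 12.4% (background 14.3%), so that neither share lay above the background. The median change of the members was −0.03 on the log2 scale, and that of all tested probe sets was −0.01. At 0.1 μM, 1 member rose and 2 fell, which is 3.37% of the members beside 6.23% of all tested probe sets (4.66% higher and 1.56% lower). Between the doses, the level at 1.0 μM was above that at 0.1 μM for 5 members and below it for 7, or 13.5% of the members beside 29.7% of all tested probe sets (12.3% higher and 17.4% lower). The 2 comparisons with DMSO share the same 3 control arrays. Changes were small: at either dose against DMSO, Eif4a3l1 at 1.0 μM was the single member past 1.5-fold. At 0.1 μM, where no member was, 0.575% of all tested probe sets were over 1.5-fold higher and 0.131% over 1.5-fold lower at an unadjusted p under 0.05.

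**Figure D1:**
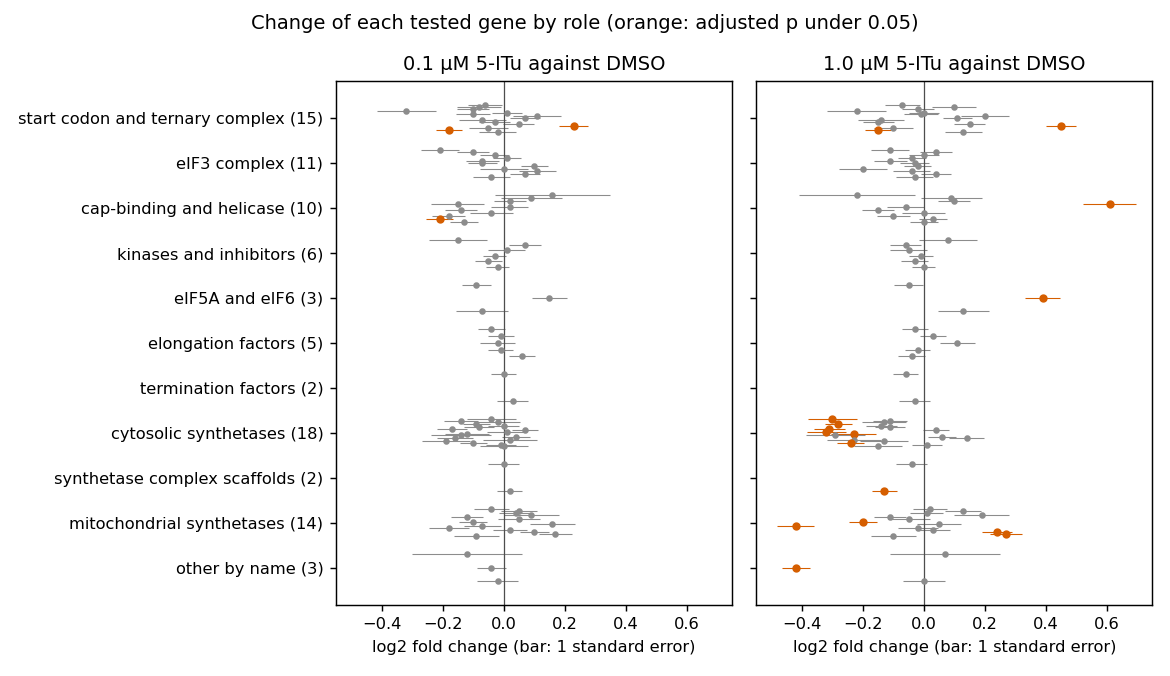
Log2 fold change (horizontal axis) of the 89 tested genes at 0.1 μM (left) and at 1.0 μM (right) of 5-ITu against DMSO, 1 point per gene with a bar of 1 standard error, in rows by role with the number of tested genes in parentheses. Orange points have an adjusted p under 0.05. At 1.0 μM the row of cytosolic synthetases holds 6 of them, all to the left of 0. The rows of eIF3, elongation and termination factors hold none at 1.0 μM, where 27.7% of all tested probe sets were called.

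The cytosolic synthetases charge the tRNAs used by cytoplasmic ribosomes. At 1.0 μM, 6 of 18 tested genes fell and none rose, a share of 33.3% lower beside the background of 14.3%. At an unadjusted p under 0.05, 10 were lower and 1 was higher, beside 2097 lower and 1914 higher of all 9911 tested probe sets. The median change over the 18 genes was −0.15, and 14 of the 18 had a negative change (77.8%, beside 51.3% of all tested probe sets). No cytosolic synthetase was called at 0.1 μM in limma, where 6.23% of all tested probe sets were, and the median was −0.06. At an unadjusted p under 0.05, 5 were lower and none higher there, beside 1051 lower and 1435 higher of all 9911 probe sets. As a median over the 18 genes, the deviation from the DMSO mean was −0.12, −0.16 and −0.21 on the arrays at 1.0 μM, −0.07, −0.06 and −0.07 at 0.1 μM, and −0.09, 0.05 and 0.03 in DMSO. DMSO replicate 1 was thus lower than the other DMSO arrays and below all arrays at 0.1 μM, whereas the arrays at 1.0 μM lay lowest. Without DMSO replicate 1, 10 cytosolic synthetases fell at 1.0 μM, and 4 fell without DMSO replicate 2, without DMSO replicate 3, or with only the compared groups fitted.

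Farsb, the beta subunit of phenylalanyl-tRNA synthetase, had the smallest p of the group. Its signal was 11.73, 11.65 and 11.74 in DMSO, 11.61, 11.62 and 11.61 at 0.1 μM, and 11.38, 11.44 and 11.46 at 1.0 μM. The groups did not overlap, and the level was lowest at the higher dose. It fell by 0.28 at 1.0 μM (SE 0.044, adjusted p = 0.0019, 1.21-fold) and was lower there than at 0.1 μM (−0.19, adjusted p = 0.012), while the change at 0.1 μM was −0.09 (adjusted p = 0.24). The alpha subunit of the same enzyme, Farsa, differed from DMSO by −0.13 (SE 0.073, adjusted p = 0.22) at 1.0 μM. Farsa is outside the fixed naming rule and is given here because it is the partner of Farsb.

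The branched-chain amino acids leucine, isoleucine and valine are each loaded by an enzyme whose transcript fell. This grouping was made after the values were seen, and Farsb, Mars1 and Cars, for other amino acids, were called lower too. Of the mitochondrial enzymes for the same amino acids, Vars2 rose and Iars2 and Lars2 were not called at 1.0 μM. Iars, the isoleucyl-tRNA synthetase, gave 12.00, 12.15 and 12.16 in DMSO, 11.95, 11.93 and 11.92 at 0.1 μM, and 11.81, 11.81 and 11.77 at 1.0 μM. All treated arrays lay below all DMSO arrays, with a fall of 0.31 at 1.0 μM (SE 0.05, adjusted p = 0.0022) and a change of −0.17 at 0.1 μM that missed the threshold (adjusted p = 0.076). Vars, the valyl-tRNA synthetase, gave 11.21, 11.17 and 11.25 in DMSO, 11.13, 11.10 and 11.09 at 0.1 μM, and 10.99, 11.00 and 10.92 at 1.0 μM. Here too the groups were separate, and Vars fell by 0.24 at 1.0 μM (SE 0.044, adjusted p = 0.0039). Lars, the leucyl-tRNA synthetase, gave 11.35, 11.43 and 11.58 in DMSO, 11.46, 11.52 and 11.41 at 0.1 μM, and 11.18, 11.16 and 11.07 at 1.0 μM. In contrast to Iars, the 0.1 μM arrays of Lars lay within the DMSO range. The fall of Lars was 0.32 at 1.0 μM (SE 0.064, adjusted p = 0.006), and its level at 1.0 μM was also below that at 0.1 μM by a change of −0.33 (adjusted p = 0.0053).

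Mars1, the methionyl-tRNA synthetase, gave 10.56, 10.83 and 10.74 in DMSO, 10.60, 10.60 and 10.59 at 0.1 μM, and 10.60, 10.43 and 10.42 at 1.0 μM. The 1.0 μM and DMSO arrays overlapped, and the fall of 0.23 (SE 0.073, adjusted p = 0.043) was lost without DMSO replicate 2 or 3, without replicate 2 or 3 at 1.0 μM, and without any array at 0.1 μM. Cars, the cysteinyl-tRNA synthetase, was chosen after its values were seen, as the remaining called gene of the group. It gave 9.96, 10.20 and 10.32 in DMSO, 10.12, 10.10 and 10.15 at 0.1 μM, and 9.80, 9.90 and 9.88 at 1.0 μM, and fell by 0.30 (SE 0.08, adjusted p = 0.021). That call was lost without DMSO replicate 2 or 3 or without replicate 1 at 1.0 μM.

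Other cytosolic synthetases moved less or were more scattered. Gars, the glycyl-tRNA synthetase, was at 11.99, 12.04 and 12.09 in DMSO and at 11.92, 11.96 and 11.82 at 1.0 μM, a difference of −0.14 (SE 0.051, adjusted p = 0.072). Eprs, the fused glutamyl- and prolyl-tRNA synthetase, changed by −0.11 (SE 0.056, adjusted p = 0.17), and Kars, the lysyl-tRNA synthetase, by 0.04 (SE 0.043, adjusted p = 0.56). The smallest change at 1.0 μM was that of Wars, the tryptophanyl-tRNA synthetase, at 0.01 (SE 0.049). Nars, the asparaginyl-tRNA synthetase, and Rars, the arginyl-tRNA synthetase, were chosen after their values were seen, for the wide DMSO spread of the former and the opposite course of the latter. Nars was at 11.77, 12.21 and 12.05 in DMSO against 11.74, 11.79 and 11.63 at 1.0 μM, so that DMSO replicate 1 fell within the treated range and the difference of −0.29 (SE 0.097) had an adjusted p of 0.051. Rars was at 11.98, 12.08 and 11.86 in DMSO, 11.83, 11.82 and 11.78 at 0.1 μM, and 12.16, 12.09 and 12.10 at 1.0 μM. It was the single cytosolic synthetase higher at 1.0 μM than at 0.1 μM (0.30, SE 0.058, adjusted p = 0.0047), and neither dose differed from DMSO at the threshold (−0.16 and 0.14, adjusted p = 0.12 and 0.096). In that comparison of the doses, 4 cytosolic synthetases were lower, namely Farsb, Vars, Lars and Cars. This was 22.2% of the 18 tested, beside 17.4% of all tested probe sets. Called in either direction were 27.8%, beside 29.7% of all tested probe sets. The calls of Farsb and Lars were kept under all alternatives, whereas those of Vars and Cars were each lost when any of the 6 treated arrays was left out.

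**Figure D2:**
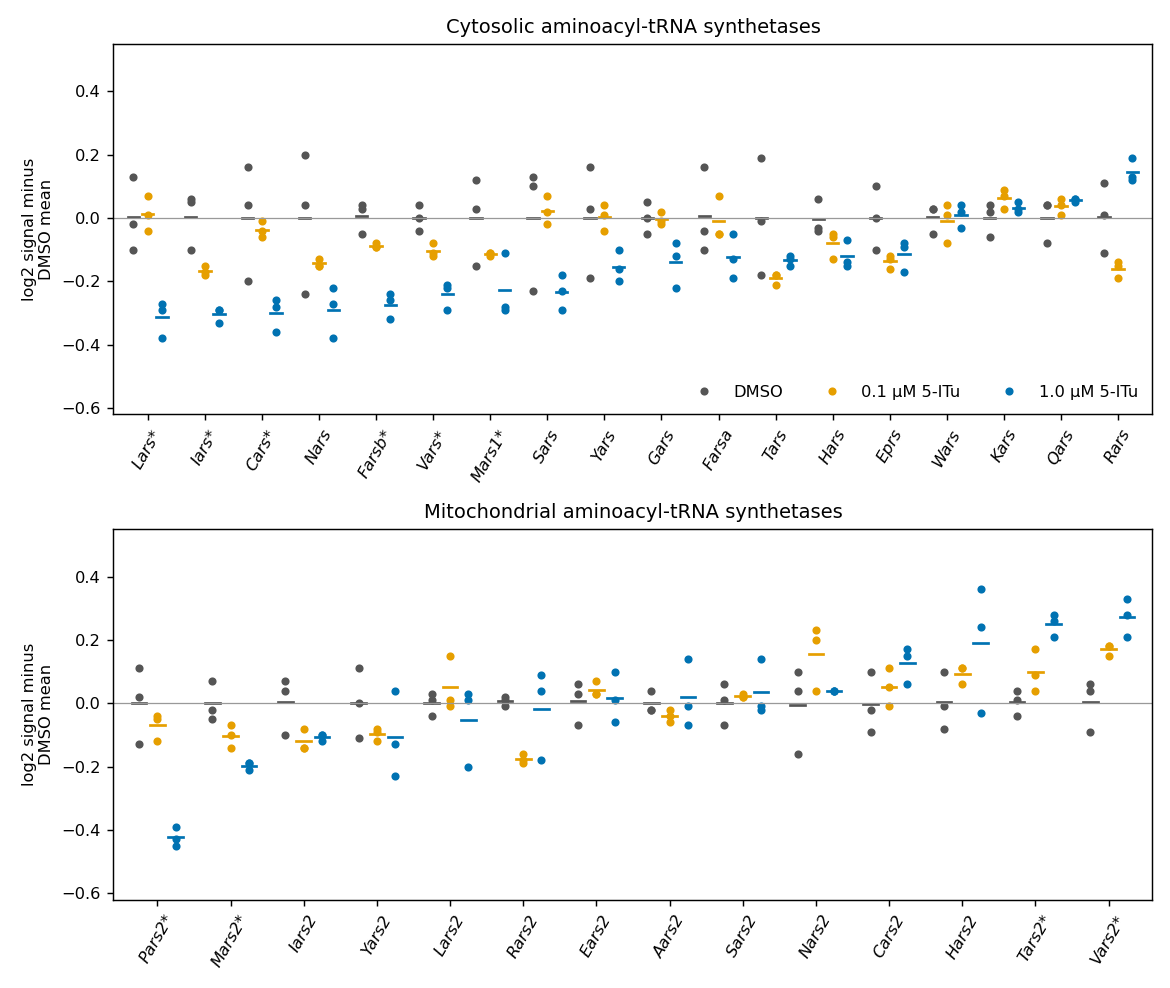
Log2 signal minus the DMSO mean (vertical axis) of 18 cytosolic (top) and 14 tested mitochondrial synthetases (bottom), with 1 point per array, a dash at each group mean and an asterisk where the gene was called at 1.0 μM against DMSO. Genes are ordered by the change at 1.0 μM; most cytosolic genes have their blue 1.0 μM points below 0, whereas the mitochondrial genes spread to both sides, from −0.42 for Pars2 to 0.27 for Vars2.

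RefSeq promoter windows, of 250 bases before and 50 after the start site (GRCm38.p6), were found for 69 of the 91 genes and 11 of the 18 cytosolic synthetases. Lars, Vars and Cars, which were called lower at 1.0 μM, had no window and were not searched. For the 8 members with several windows, a match in any of them was counted. They were searched on both strands for TGATGCAA, the core of the C/EBP-ATF element that ATF4 reads, for the E-box CACGTG, and for the cAMP response element TGACGTCA. The 3 letter strings do not overlap one another in the windows shown. The C/EBP-ATF core was present in 3 of the 11 cytosolic synthetases (27.3%: Iars, Tars and Yars) and in no other member, beside 1.03% of the 27025 genes of the table. The E-box was present in 14 of 69 members (20.3%) and 8.09% of all genes, and among cytosolic synthetases in Farsb, Iars and Tars. Such matches describe the sequence and do not show binding. Stretches around these matches, from 80 bases before to 25 after the start site, are shown 5′ to 3′ on the strand of the gene. They hold the letters that these synthetases share. Capitals mark the matches, and TTGCATCA is TGATGCAA read from the opposite strand.
Iars, chr13:49682050-49682154, plus strand: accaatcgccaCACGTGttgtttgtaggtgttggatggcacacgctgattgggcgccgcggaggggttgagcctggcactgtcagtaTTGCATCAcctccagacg
Tars, chr15:11399634-11399738, minus strand: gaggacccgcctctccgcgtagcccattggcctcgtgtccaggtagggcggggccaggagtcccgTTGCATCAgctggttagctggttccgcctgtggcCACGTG
Yars, chr4:129189823-129189927, plus strand: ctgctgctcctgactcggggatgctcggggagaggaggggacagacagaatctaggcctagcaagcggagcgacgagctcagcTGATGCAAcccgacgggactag
Farsb, chr1:78488873-78488977, minus strand: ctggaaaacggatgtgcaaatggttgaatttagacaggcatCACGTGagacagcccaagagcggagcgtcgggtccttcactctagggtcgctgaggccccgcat
The core begins 8 bases into the transcript in Iars, 4 bases into it in Yars, and at position −15 in Tars. Of these 3 genes Iars fell at 1.0 μM, whereas Tars, the threonyl-tRNA synthetase (−0.13, SE 0.078, adjusted p = 0.23), and Yars, the tyrosyl-tRNA synthetase (−0.15, SE 0.079, adjusted p = 0.17), did not pass the test. The change was negative in all 3, and the genes were not tested against one another. Tars and Yars are named here for the match, outside the naming rule.

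Mitochondrial synthetases, which are nuclear genes for the enzymes that charge tRNAs inside mitochondria, did not share a direction. Of 14 tested, 2 rose and 2 fell at 1.0 μM, or 14.3% each way beside 13.4% higher and 14.3% lower in the background. None was called at 0.1 μM, beside 6.23% of all tested probe sets, and the median change at 1.0 μM was 0.02. At 0.1 μM and an unadjusted p under 0.05, 1 was higher and 3 were lower, beside 1435 higher and 1051 lower of all 9911 probe sets. Vars2, the mitochondrial valyl-tRNA synthetase, gave 8.85, 9.0 and 8.98 in DMSO, 9.12, 9.09 and 9.12 at 0.1 μM, and 9.15, 9.22 and 9.27 at 1.0 μM. The groups were separate and increasing with dose, with a rise of 0.27 at 1.0 μM (SE 0.053, adjusted p = 0.0054) and a change of 0.17 at 0.1 μM (adjusted p = 0.088). Its cytosolic counterpart Vars fell. Tars2, the mitochondrial threonyl-tRNA synthetase, gave 9.30, 9.33 and 9.25 in DMSO, 9.33, 9.46 and 9.38 at 0.1 μM, and 9.55, 9.50 and 9.57 at 1.0 μM, and rose by 0.24 (SE 0.048, adjusted p = 0.006).

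The 2 that fell differ in how far they lay above background. Pars2, the mitochondrial prolyl-tRNA synthetase, was at 8.54, 8.78 and 8.69 in DMSO, 8.62, 8.55 and 8.63 at 0.1 μM, and 8.22, 8.24 and 8.28 at 1.0 μM. The values at 1.0 μM are under the threshold of 8.46, so the fall of 0.42 (SE 0.061, adjusted p = 0.0013) ends in signal that is not above background. Mars2, the mitochondrial methionyl-tRNA synthetase, was at 8.86, 8.77 and 8.74 in DMSO, 8.72, 8.65 and 8.69 at 0.1 μM, and 8.60, 8.58 and 8.60 at 1.0 μM. Its groups were separate, and it fell by 0.20 (SE 0.046, adjusted p = 0.011). Ears2, the mitochondrial glutamyl-tRNA synthetase, changed least, by 0.01 (SE 0.054). Lars2 had a mean under the threshold at 1.0 μM, and Fars2, which was over it on 2 arrays, was not tested.

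The scaffold proteins of the multisynthetase complex, which holds several cytosolic synthetases together, were represented by Eef1e1 and Aimp1. Eef1e1, which encodes AIMP3 and carries the name of an elongation factor, was at 12.48, 12.42 and 12.49 in DMSO, 12.49, 12.46 and 12.49 at 0.1 μM, and 12.35, 12.33 and 12.30 at 1.0 μM. The 1.0 μM arrays lay below all the others, and the fall of 0.13 (SE 0.041, adjusted p = 0.04) was lost when any array other than DMSO replicate 2 was left out. Aimp1 changed by −0.04 (SE 0.05, adjusted p = 0.55).

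Among 15 genes named for factors of start codon recognition and of the ternary complex of eIF2, GTP and initiator tRNA, 1 rose and 1 fell at each dose. The background was 4.66% higher and 1.56% lower at 0.1 μM, and 13.4% higher and 14.3% lower at 1.0 μM. Eif2s2, the beta subunit of eIF2, gave 8.92, 8.97 and 9.03 in DMSO, 9.22, 9.24 and 9.15 at 0.1 μM, and 9.47, 9.39 and 9.41 at 1.0 μM. The 3 groups were separate and increased with dose. Eif2s2 rose by 0.23 at 0.1 μM (SE 0.048, adjusted p = 0.024) and by 0.45 at 1.0 μM (1.37-fold, adjusted p = 0.00028), and the doses differed by 0.22 (adjusted p = 0.0088). The call at 0.1 μM was lost without DMSO replicate 1 or 2 or without any array at 0.1 μM, and that at 1.0 μM was kept under all alternatives. Eif5, the GTPase-activating protein that acts on eIF2 at the start codon, gave 12.05, 11.97 and 11.97 in DMSO, 11.80, 11.81 and 11.84 at 0.1 μM, and 11.84, 11.84 and 11.87 at 1.0 μM. All treated arrays were below all DMSO arrays, with falls of 0.18 (SE 0.042, adjusted p = 0.039) and 0.15 (adjusted p = 0.028), and no difference between the doses was detected (0.03, adjusted p = 0.62). Both Eif5 calls depended on single arrays: the one at 0.1 μM was lost without any DMSO array, any array at 0.1 μM or replicate 2 at 1.0 μM, and the one at 1.0 μM without DMSO replicate 1, replicate 1 or 2 at 1.0 μM, or replicate 1 or 3 at 0.1 μM.

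The other factors of this group gave changes of −0.22 to 0.20 at 1.0 μM. They include the exchange factor eIF2B, which recharges eIF2 with GTP, and none of its 5 subunits was called. Eif2a, an initiator tRNA carrier unrelated to eIF2, was at 11.42, 11.43 and 11.41 in DMSO and at 11.45, 11.42 and 11.39 at 1.0 μM. Eif2b4 had a mean over the background threshold in DMSO and under it at both doses. Eif1-ps3, by its symbol a pseudogene of Eif1, was counted in this group and was not called at 1.0 μM (−0.07, limma adjusted p = 0.35).

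**Figure D3:**
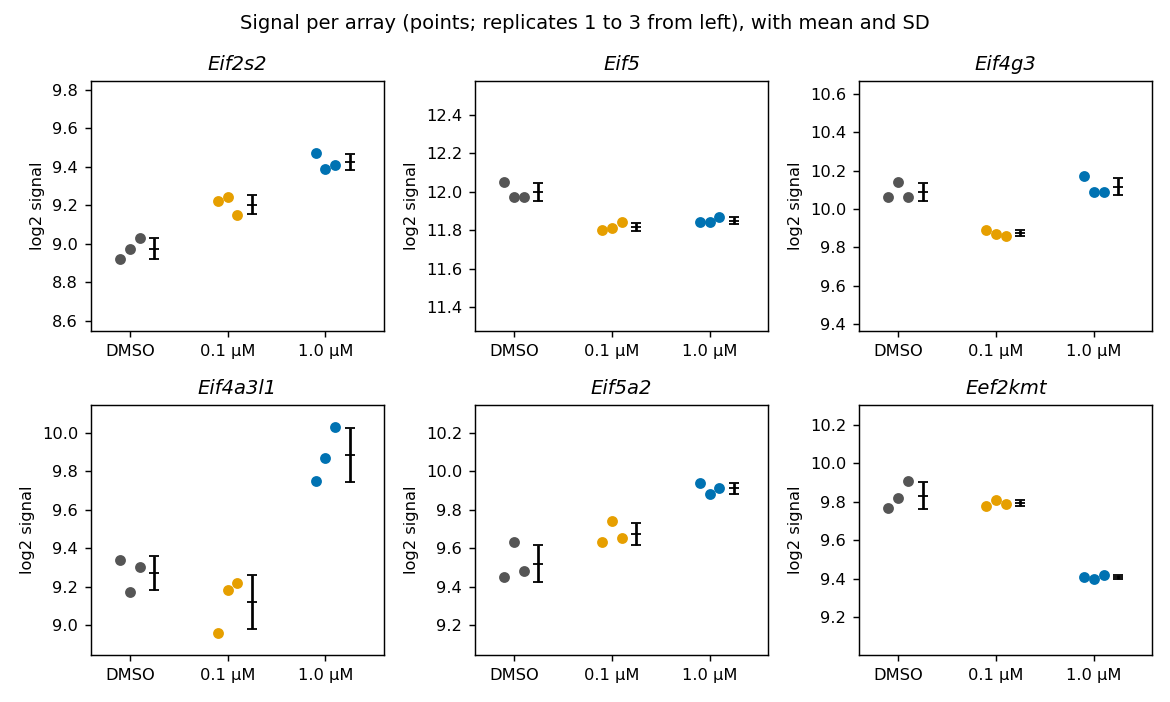
Log2 signal (vertical axis, each panel spanning the same range) of 6 genes on each array, with replicates 1 to 3 from left to right in the DMSO group and at 0.1 and 1.0 μM, and the group mean ± SD beside them. Eif2s2 and Eif5a2 step up with dose, Eif5 is lower at both doses, Eif4g3 is lower at 0.1 μM, and Eif4a3l1 and Eef2kmt stand apart at 1.0 μM.

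The eIF3 complex, which binds the small ribosomal subunit and recruits it to mRNA, had 11 tested subunits. None was called in limma in any comparison. Of all tested probe sets, 6.23% were called at 0.1 μM, 27.7% at 1.0 μM and 29.7% between the doses. With so few genes, the lack of a call does not show a lack of change. At an unadjusted p under 0.05 against DMSO, 1 subunit was lower at 0.1 μM, 1 was lower at 1.0 μM, and none was higher. Of all 9911 tested probe sets, 1051 were lower and 1435 higher at 0.1 μM, and 2097 lower and 1914 higher at 1.0 μM. The changes at 1.0 μM ran from −0.20 to 0.04 with a median of −0.03. Eif3c, a core subunit, was at 12.38, 12.53 and 12.42 in DMSO and at 12.45, 12.45 and 12.43 at 1.0 μM.

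Of the 10 cap-binding and helicase genes, 1 fell at 0.1 μM and 1 rose at 1.0 μM. Of all tested probe sets, 6.23% were called at 0.1 μM (1.56% lower) and 27.7% at 1.0 μM (13.4% higher). Eif4g3, a scaffold that joins the cap-binding protein to the helicase and the ribosome, gave 10.06, 10.14 and 10.06 in DMSO, 9.89, 9.87 and 9.86 at 0.1 μM, and 10.17, 10.09 and 10.09 at 1.0 μM. Only the 0.1 μM arrays were apart from DMSO. Eif4g3 fell by 0.21 at 0.1 μM (SE 0.045, adjusted p = 0.025), was at 0.03 at 1.0 μM (adjusted p = 0.65), and differed between the doses by 0.24 (adjusted p = 0.0042). The call at 0.1 μM was lost without DMSO replicate 2 or any array at 0.1 μM. Eif4e, the cap-binding protein, gave 11.28, 11.17 and 11.20 in DMSO, 11.14, 11.03 and 11.06 at 0.1 μM, and 11.14, 11.02 and 11.06 at 1.0 μM. Its treated arrays were below all DMSO arrays by a mean of −0.14 and −0.15 (SE 0.052), with adjusted p = 0.14 and 0.066. At 1.0 μM the adjusted p was under 0.05 without replicate 1 at 1.0 μM (0.049), with array weights (0.038) and with a block for the replicate number (0.03). Eif4h, a cofactor of the helicase eIF4A, did not move at 1.0 μM beyond its spread (0.00, SE 0.045).

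Eif4a3l1 is a gene like Eif4a3, whose helicase belongs to the exon junction complex. Its signal was 9.34, 9.17 and 9.30 in DMSO, 8.96, 9.18 and 9.22 at 0.1 μM, and 9.75, 9.87 and 10.03 at 1.0 μM. The 1.0 μM arrays were above all others, whereas the other groups overlapped. Eif4a3l1 rose by 0.61 (SE 0.087, adjusted p = 0.0011, 1.53-fold) at 1.0 μM and exceeded the 0.1 μM level by 0.76 (adjusted p = 0.00038). Over all tested probe sets, 1.05% were over 1.5-fold higher and 1.92% over 1.5-fold lower at an unadjusted p under 0.05 against DMSO, and between the doses the shares were 0.605% and 2.26%. The identity of this signal is uncertain, since the gene closely resembles Eif4a3: a probe set assigned jointly to Eif4a3, Eif4a3l1 and Gm5576 changed by 0.04 at 1.0 μM against DMSO (adjusted p = 0.55) and was higher at 1.0 μM than at 0.1 μM by 0.16 (adjusted p = 0.038), and the probe set of Eif4a3 alone, whose means in DMSO and at 0.1 μM are under the background threshold, by 0.10 at 1.0 μM against DMSO (adjusted p = 0.17).

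Genes that restrain initiation, 3 kinases of eIF2 and 3 proteins that bind eIF4E, gave no call in limma in any comparison. None of the 6 reached an unadjusted p under 0.05 against DMSO. Of all tested probe sets, 6.23% were called at 0.1 μM, 27.7% at 1.0 μM and 29.7% between the doses. Eif2ak4, the uncharged tRNA sensor GCN2, was at 8.65, 8.81 and 8.80 in DMSO, 8.78, 8.72 and 8.78 at 0.1 μM, and 8.70, 8.62 and 8.79 at 1.0 μM. Eif4ebp1, the mTOR target 4E-BP1, was at 12.63, 12.69 and 12.68 in DMSO and at 12.65, 12.66 and 12.66 at 1.0 μM (−0.01, SE 0.039). Eif4enif1, the eIF4E transporter, was at 10.55 on each array at 1.0 μM and at 10.56, 10.55 and 10.55 in DMSO. These levels overlapped between DMSO and 1.0 μM.

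The eIF5A proteins carry the modified lysine hypusine and help ribosomes through difficult peptide bonds. Eif5a2, the paralogue that is limited to few tissues in the adult, gave 9.45, 9.63 and 9.48 in DMSO, 9.63, 9.74 and 9.65 at 0.1 μM, and 9.94, 9.88 and 9.91 at 1.0 μM. The arrays at 1.0 μM were above all others, and the lowest 0.1 μM array was level with the highest DMSO array after rounding. Eif5a2 rose by 0.39 at 1.0 μM (SE 0.057, adjusted p = 0.0012, 1.31-fold), by a further 0.24 between the doses (adjusted p = 0.012), and had a change of 0.15 at 0.1 μM that missed the threshold (adjusted p = 0.14). Eif5a itself was at 12.26, 12.16 and 12.13 in DMSO and at 12.14, 12.13 and 12.13 at 1.0 μM, a change of −0.05 (SE 0.047, adjusted p = 0.49). The promoter window of Eif5a2 holds 2 E-boxes, and its stretch from position −160 to position −91 is shown with them in capitals, because this gene had the strongest rise after Eif4a3l1 and Eif2s2.
Eif5a2, chr3:28781117-28781186, plus strand: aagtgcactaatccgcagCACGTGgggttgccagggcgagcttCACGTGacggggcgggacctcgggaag
The E-box was also present in different windows of Eif5a, at positions −74 and −178 from their own start sites. The same letters thus stood before a paralogue that rose and one that was not called.

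Of the elongation factors, 5 were tested, and none was called in limma or reached an unadjusted p under 0.05. The called shares of all tested probe sets were 6.23% at 0.1 μM, 27.7% at 1.0 μM and 29.7% between the doses. Changes of these 5 genes were no larger than 0.06 at 0.1 μM and 0.11 at 1.0 μM. Eef1a1, the GTPase that delivers aminoacyl-tRNA to the ribosome, was at 13.51, 13.53 and 13.59 in DMSO, 13.47, 13.51 and 13.52 at 0.1 μM, and 13.49, 13.49 and 13.55 at 1.0 μM. Eef2, the GTPase of translocation, was at 13.47, 13.54 and 13.58 in DMSO, 13.59, 13.58 and 13.59 at 0.1 μM, and 13.45, 13.51 and 13.51 at 1.0 μM. For both genes the 1.0 μM arrays overlapped DMSO, with changes of −0.03 (SE 0.043, adjusted p = 0.6) and −0.04 (SE 0.044, adjusted p = 0.52). Eef1g, a structural subunit of the exchange complex of eEF1A, changed least (−0.02, SE 0.041). Eef1a2, the form of muscle and neurons, was over the background threshold on 1 array and was not tested. Eef2 was the single member whose promoter window held a cAMP response element, beside 2.03% of all genes, and it is shown as a member with 2 kinds of match and no call.
Eef2, chr10:81176551-81176655, plus strand: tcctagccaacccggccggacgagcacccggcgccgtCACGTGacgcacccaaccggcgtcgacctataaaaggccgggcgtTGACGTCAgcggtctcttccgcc

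The termination factors Etf1 (eRF1, which reads the stop codon) and Gspt1 (its GTPase partner eRF3a) were not called at either dose. Of all tested probe sets, 6.23% were called at 0.1 μM and 27.7% at 1.0 μM. Gspt1 was at 11.08, 11.12 and 11.05 in DMSO and at 11.02, 11.09 and 11.05 at 1.0 μM, a change of −0.03 (SE 0.051, adjusted p = 0.68).

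A group of their own was formed by 3 genes that entered by name without being translation factors themselves. Eef2kmt, the methyltransferase that modifies a lysine of eEF2, was at 9.77, 9.82 and 9.91 in DMSO, 9.78, 9.81 and 9.79 at 0.1 μM, and 9.41, 9.40 and 9.42 at 1.0 μM. The arrays at 1.0 μM were lower than all the others, whereas 0.1 μM and DMSO overlapped. Eef2kmt fell by 0.42 (SE 0.046, adjusted p = 0.00029, 1.34-fold) at 1.0 μM and was lower there than at 0.1 μM by a change of −0.38 (adjusted p = 0.00047). Eif1ad and Eef1akmt1, the latter a methyltransferase of eEF1A, were not called.

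A further list of 55 translation genes outside the symbols above covered mTOR signalling, poly(A)-binding, recycling, selenocysteine and mitochondrial translation. It had 39 genes with a probe set in the deposited table and 36 tested. Of these, 3 rose and 7 fell at 1.0 μM (27.8%, as in the background of 27.7%). At 0.1 μM, 1 fell (2.78%, beside 6.23% of all tested probe sets called). The largest change was in Gatc, a subunit of the mitochondrial amidotransferase that makes glutaminyl-tRNA, which is at work beside the mitochondrial synthetases. It was at 10.89, 10.61 and 10.78 in DMSO, 10.41, 10.40 and 10.47 at 0.1 μM, and 10.24, 10.15 and 10.06 at 1.0 μM, and fell by 0.33 (SE 0.074, adjusted p = 0.029) and 0.61 (adjusted p = 0.00044). The groups of Gatc were separate, but the call at 0.1 μM was lost without DMSO replicate 1 or 3, any array at 0.1 μM, or replicate 2 at 1.0 μM. Of the other subunits of this enzyme, Qrsl1 changed by 0.10 at 1.0 μM (adjusted p = 0.23). Gatb was over the background threshold on 2 arrays and was not tested. Both are outside the naming rule. Mtif2, the mitochondrial initiation factor 2, was at 9.12, 9.17 and 9.20 in DMSO, 9.03, 9.06 and 9.06 at 0.1 μM, and 8.66, 8.72 and 8.71 at 1.0 μM, a fall of 0.46 (SE 0.042, adjusted p = 0.00015).

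The list had 7 tested genes of mTOR signalling upstream of or at its S6 kinases, grouped after their values were seen. At 1.0 μM, 2 of them fell and 5 were not called. Among all tested probe sets, 14.3% fell and 27.7% were called in either direction. Mtor, the kinase that phosphorylates 4E-BP1, fell by 0.27 at 1.0 μM (SE 0.056, adjusted p = 0.0075), and Rheb, the GTPase that activates mTORC1, fell by 0.25 (SE 0.062, adjusted p = 0.017). The others were Rptor (0.04), Tsc1 (−0.03), Tsc2 (−0.02) and Mlst8 (−0.19, adjusted p = 0.089), and Rps6kb2 differed from DMSO by less than 0.01. Gcn1, the partner through which GCN2 senses uncharged tRNA, fell by 0.22 (SE 0.052, adjusted p = 0.013). Denr, a factor of ribosome recycling and reinitiation, went from 10.60, 10.61 and 10.52 in DMSO to 10.43, 10.39 and 10.41 at 0.1 μM and 10.84, 10.81 and 10.71 at 1.0 μM. It rose by 0.21 at 1.0 μM (SE 0.049, adjusted p = 0.012), lay below DMSO at 0.1 μM by a change that missed the threshold (−0.16, adjusted p = 0.076), and differed between the doses by 0.37 (adjusted p = 0.00083). Of the list's other called genes, chosen after their values were seen, Ppp1r15a, the stress-induced subunit that directs dephosphorylation of eIF2, rose by 0.20 (adjusted p = 0.023). Paip2b rose by 0.18 (adjusted p = 0.034), and Eefsec (−0.17, adjusted p = 0.026) and Secisbp2 (−0.15, adjusted p = 0.035) fell. With only the compared groups fitted, Denr was the 1 gene of the list still called higher, so the calls of Ppp1r15a and Paip2b were lost.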

How the data were processed

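E14 cells were compared on 9 arrays, 3 per group. Probe signals were summarised by the authors through RMA, with Affymetrix Expression Console, and the deposited table holds log2 values for 10476 probe sets. Their methods state that probes over a signal of 353 were considered. The values were used as deposited. Symbols came from the platform annotation (8854 probe sets with 1 symbol, 668 with several, 954 with none), and 91 of 91 member symbols were in RefSeq for GRCm38.p6, the build of the promoter sequences. Probe sets over log2 of 353 on at least 3 arrays (9911) entered 1 limma model of all groups (version 3.58.1 under R 4.3.3, with lmFit, contrasts.fit and eBayes), with Benjamini-Hochberg adjustment over all of them and a threshold of 0.05. The fit was tested on simulated data. The number of arrays limits the precision, and levels of different probe sets were not compared.

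The members and lists were chosen with earlier results of these data known. Genes were named by a rule: those called at 0.1 μM, up to 4 called per role at 1.0 μM, the smallest change per role, 12 fixed genes (of which those with a probe set of their own could be given), up to 6 further translation genes, and those past 1.5-fold. Counts were recomputed with array weights, without any filter or with one that needs all 9 arrays, and with only the groups compared. Further settings were a block for the replicate number, quantile normalization, a trended and robust eBayes, and an adjusted p under 0.1. The last were a one-way F, a gene's probe sets averaged, and each array left out in turn. The methods join their one-way test to a 1.5-fold cut. The F here was Benjamini-Hochberg adjusted and had no fold cut, so its counts are not those of the methods.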

Additional observations from a re-analysis of the deposited data

How the results depend on the processing

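No named gene reversed a call under any alternative, and of their values at alternative settings 55 lost the call and 8 gained it. Another 786 kept the call or, where there was none, stayed uncalled within 1 SD of the reported value (some near 0 with the other sign), and 5 uncalled values moved further. Leaving out 1 array gave 0 to 1 members higher and 0 to 4 lower at 0.1 μM (1 and 2 with all arrays; 0 higher without DMSO replicate 1 or 2 or any 0.1 μM array, 0 lower without DMSO replicate 2 or any 0.1 μM array, 1 lower without replicate 2 at 1.0 μM, 4 lower without DMSO replicate 1). It gave 5 to 8 higher (8 without DMSO replicate 1) and 8 to 14 lower at 1.0 μM, 4 to 9 higher (9 without replicate 3 at 1.0 μM) and 4 to 11 lower between the doses (4 without replicate 2 at 1.0 μM or any 0.1 μM array, 11 without DMSO replicate 1), and 0 to 1 cytosolic synthetases higher (1 without DMSO replicate 2) and 4 to 10 lower at 1.0 μM. Array weights gave 2 members higher and 8 lower at 0.1 μM, 10 higher and 17 lower at 1.0 μM, 19 higher and 20 lower between the doses, and 1 cytosolic synthetase higher. With them the mitochondrial synthetases had 3 higher and 3 lower. An adjusted p under 0.1 gave 2 higher and 6 lower at 0.1 μM, 8 higher and 17 lower at 1.0 μM, 12 higher and 14 lower between the doses, 1 cytosolic synthetase higher and 5 further translation genes higher. The one-way F gave 6 higher and 11 lower at 0.1 μM, 8 higher at 1.0 μM, 9 higher between the doses, and 1 cytosolic synthetase higher; it calls a difference among the 3 groups, not a single comparison. Fitting the compared groups alone gave 7 lower at 1.0 μM, 9 higher and 11 lower between the doses, and 1 further translation gene higher. Quantile normalization gave 1 lower at 0.1 μM, trend and robust settings gave 4 lower there and 12 lower between the doses, and the filter over all 9 arrays left 1 mitochondrial synthetase lower. The cause was not tested. The labels tie no culture or date to the replicate numbers. Deviations of arrays with the same number correlated by −0.02 to 0.51, not all above 0.1. Between DMSO and 1.0 μM these correlations were 0.51, 0.067 and 0.437, beside −0.444 to 0.118 for unlike numbers. In the other comparisons they ran from −0.02 to 0.28, beside −0.28 to 0.26. Whether arrays with the same number share a culture or batch was not tested. With the replicate block, 5 further translation genes were higher at 1.0 μM instead of 3. The members' counts were then 1 higher and 2 lower at 0.1 μM and 5 higher and 11 lower at 1.0 μM. These were not all the same genes: under the block Eif5 was lost (adjusted p = 0.052) and Eif1b gained (0.045) at 0.1 μM, and Eef1e1 (0.053) and Mars1 (0.058) were lost and Eif4e (0.03) and Nars (0.037) gained at 1.0 μM. Between the doses, Vars was lost (0.059) and Eif3b (0.047) and Sars (0.044) were gained. Differences of about 0.1 on the log2 scale are near the spread between arrays and were mostly not detectable with 3 per group.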

Other observations

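11 probe sets name a member together with another gene and were left out of the counts above. The probe set shared by Aars, the cytosolic alanyl-tRNA synthetase, and Exosc6 averaged 10.85 in DMSO, 10.81 at 0.1 μM and 10.69 at 1.0 μM, a change of −0.16 at 1.0 μM that missed the threshold (limma, adjusted p = 0.067). A probe set shared by Rfc4 and Eif4a2 averaged 11.29, 11.43 and 11.54, and its change of 0.25 at 1.0 μM passed it (adjusted p = 0.011). The probe set of Eif2s3x, the X-linked gamma subunit of eIF2, and Gm2223 changed by −0.24 (adjusted p = 0.2), and that of Aimp2, a scaffold of the multisynthetase complex, and Eif2ak1 by 0.10 (adjusted p = 0.36).

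Different probe sets of the helicase gene Eif4a2 did not move together. The brightest one changed by 0.09 at 1.0 μM (adjusted p = 0.54), whereas a second one averaged 10.27 in DMSO, 10.45 at 0.1 μM and 9.96 at 1.0 μM and was lower at 1.0 μM than at 0.1 μM (−0.49, adjusted p = 0.02), with −0.31 against DMSO (adjusted p = 0.11). For Eif4a1, the main helicase of initiation, the brightest probe set was scattered, at 12.84, 13.31 and 13.29 in DMSO and at 12.49, 12.95 and 13.33 at 1.0 μM, where replicate 1 was the lowest in both groups, and a further probe set changed by 0.03 at 1.0 μM. These genes were looked at after their values were seen.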
